A study of Mus musculus with 14 samples.

Results

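The lineage-specifying Sox genes examined here were 9 members of the Sox family of transcription factors other than Sox2, taken as a fixed list of gene names: Sox1, Sox3, Sox7, Sox9, Sox10, Sox11, Sox17, Sox18 and Sox21. They were 9 of 19 Sox genes and 9 of 21938 protein-coding genes of the GENCODE M21 annotation. ChIP-seq peaks of Smarca4 and Ezh2 and islands of the histone marks H3K4me3, H3K27ac and H3K27me3 were counted and placed at each gene. A gene region began 1 kb before the TSS (the start of transcription) and ended with the transcript, and a window added 20 kb on either side. Chromatin came from 81K1 cells, mouse embryonic stem cells derived from the OG2 line through clone K1, in which the Rosa26 locus carries a doxycycline-dependent cassette with a short hairpin RNA against Smarcb1. Control cells were untreated. Smarcb1 kd cells received 1 µg/ml doxycycline daily and were fixed after 72 h. Both conditions carried the cassette, and only the kd cells saw the drug, so that an effect of doxycycline and an effect of the knockdown cannot be told apart in these libraries. There was 1 library per antibody and condition. Replicate error is therefore unknown, nothing was tested, and each difference below is a difference between 2 libraries.

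Sox proteins bind DNA through a shared high-mobility-group (HMG) box and are grouped by sequence. Sox1 and Sox3 are SoxB1 factors of neural progenitors, and Sox21 is a SoxB2 factor that counteracts SoxB1 activity in neurogenesis. Sox11 is a SoxC factor of newborn neurons. Sox9 and Sox10 are SoxE factors, Sox9 in cartilage, testis and glia and Sox10 in the neural crest, Schwann cells and oligodendrocytes. Sox7, Sox17 and Sox18 are SoxF factors of endothelium, and Sox17 also directs endoderm. In embryonic stem cells such developmental regulators commonly sit in bivalent chromatin, in which H3K4me3, a mark of promoters, and H3K27me3, the repressive mark written by Ezh2 as the catalytic subunit of the PRC2 complex, occur together. Smarca4 is the ATPase of the esBAF chromatin remodelling complex, to which Smarcb1 belongs, and H3K27ac marks active promoters and enhancers.

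Most of the members start in CpG-rich sequence. The RefSeq promoter table of GRCm38.p6 held entries for Sox1, Sox11 and Sox21. The 250 bases upstream of the start are shown for these 3 to let the density of CpG at these starts be seen. For Sox1 they were read from GRCm38 before the GENCODE start, since the start in the table lies inside the GENCODE gene, and for Sox11 and Sox21 from the table. The sequences run 5′ to 3′ on the strand of the gene, and capitals mark CpG. Sox1 lies at chr8:12395045-12395294 on the plus strand, Sox11 at chr12:27342719-27342968 and Sox21 at chr14:118237031-118237280, both on the minus strand.
Sox1 promoter: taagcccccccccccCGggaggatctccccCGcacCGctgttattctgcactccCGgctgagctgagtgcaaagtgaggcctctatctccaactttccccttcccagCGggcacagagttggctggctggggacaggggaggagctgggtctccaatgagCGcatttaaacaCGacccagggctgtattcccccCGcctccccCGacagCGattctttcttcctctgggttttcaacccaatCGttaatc
Sox11 promoter: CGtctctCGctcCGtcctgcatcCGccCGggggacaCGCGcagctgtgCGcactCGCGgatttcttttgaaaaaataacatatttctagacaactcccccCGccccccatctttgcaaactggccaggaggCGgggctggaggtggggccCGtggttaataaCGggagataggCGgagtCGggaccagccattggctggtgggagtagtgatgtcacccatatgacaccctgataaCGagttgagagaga
Sox21 promoter: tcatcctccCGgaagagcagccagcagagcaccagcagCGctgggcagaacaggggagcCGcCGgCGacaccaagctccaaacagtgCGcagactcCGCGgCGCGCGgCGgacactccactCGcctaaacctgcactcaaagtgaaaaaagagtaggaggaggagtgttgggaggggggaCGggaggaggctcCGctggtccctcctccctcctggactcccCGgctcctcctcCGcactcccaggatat

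In the table's windows of 300 bases, from 250 before to 50 after the start, Sox1 held 37 CpG, Sox11 held 21 and Sox21 held 22, against a median of 7 over 32851 promoters. Of all promoters, 5.58% held at least as many as Sox1, 24.8% as many as Sox11 and 23.1% as many as Sox21. In the 2001 bases centred on the GENCODE TSS, the 9 members held between 54 and 216 CpG with a median of 130, whereas the median protein-coding gene held 61 and the median of the 10 other Sox genes was 121. Sox11 was the richest with 216 CpG, a number reached by 0.447% of protein-coding genes. Sox10 with 54 and Sox17 with 74 were the poorest, and 54.8% and 41.6% of protein-coding genes reached their counts. The letters AACAAT, a core of the Sox motif, occurred on neither strand of the 3 promoters of 300 bases and on either strand in 10.7% of all promoters. The letters ATGCAAA, the start of the octamer bound by Pou5f1, occurred at Sox1 and in 4.63% of all promoters.

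Across the genome the lists held between 5364 regions (Ezh2 in kd) and 79014 regions (Smarca4 in control). Between 8.15% (H3K4me3 in control) and 51.2% (Ezh2 in control) of a list had no overlap of 1 bp with the other condition of the same antibody. Such regions are called control-only or kd-only below. The lists hold no read counts, so the depth of each library is unknown, and a region that is missing from a list was not detectable at that library's threshold rather than absent. The stem cell label was checked on marker genes. H3K4me3 lay within 1 kb of the TSS at 5 of 6 stem cell markers in each condition, Esrrb being the other, and H3K27ac at 4 of 6 in control and 5 of 6 in kd. Of 4 fibroblast markers, H3K4me3 lay at the TSS of 0 in control and 2 in kd, and H3K27ac at 0 in either condition. Of 4 primitive endoderm markers, H3K4me3 lay at the TSS of 1, Gata6, in each condition, H3K27ac at 0 and H3K27me3 at 3. Of 4 neural markers, H3K4me3 lay at 3 in each condition and H3K27me3 at 4, while H3K27ac lay at 0 in control and at 1, Sox1, in kd. H3K4me3 alone thus did not separate the stem cell from the neural markers, and H3K27ac in control lay at the TSS of the stem cell markers alone among the 4 lists.

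All 9 Sox members were bound by Smarca4 and covered by H3K27me3 in both conditions, nearly all carried Ezh2 and H3K4me3, and H3K27ac was rare. Smarca4 peaks lay in the gene region of 9 of 9 members in control and in kd, against a background of 70.3% and 71.7% of protein-coding genes. Ezh2 peaks lay in 8 members in control and 9 in kd, where the background was 12.6% and 15.4%. H3K27me3 islands lay in 9 and 9, with a background of 42.4% and 35.6%. H3K4me3 islands lay in 8 and 9, with a background of 63.4% and 68.1%. H3K27ac stood below its background, with 0 members in control and 2 in kd against 32.4% and 48.2% of protein-coding genes. The counts thus stood farthest from the background for Ezh2 and H3K27me3, and H3K27ac in control was the mark that no member carried.

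Within 1 kb of the TSS the picture was similar, as the plot of presence at the TSS shows. Smarca4 lay at 8 members in control and 9 in kd (background 62.5% and 63.5%), Ezh2 at 8 and 8 (7.13% and 12.6%) and H3K27me3 at 9 and 9 (34.9% and 29.2%). H3K4me3 lay at 7 and 8 members (56.6% and 60.4%) and H3K27ac at 0 and 2 (16% and 30.9%). The Wilson 95% interval of the Ezh2 background ran from 6.8% to 7.48% in control and from 12.2% to 13.1% in kd. H3K4me3 together with H3K27me3, the bivalent state, lay at the TSS of 21.2% of protein-coding genes in control and 21.6% in kd. Sox3, Sox7, Sox9, Sox18 and Sox21 shared 1 pattern, with Smarca4, Ezh2, H3K27me3 and H3K4me3 at the TSS in both conditions and H3K27ac in neither. That pattern held for 1155 protein-coding genes, or 5.26%. Sox1, Sox10, Sox11 and Sox17 each departed from it in their own way.

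**Figure D1:**
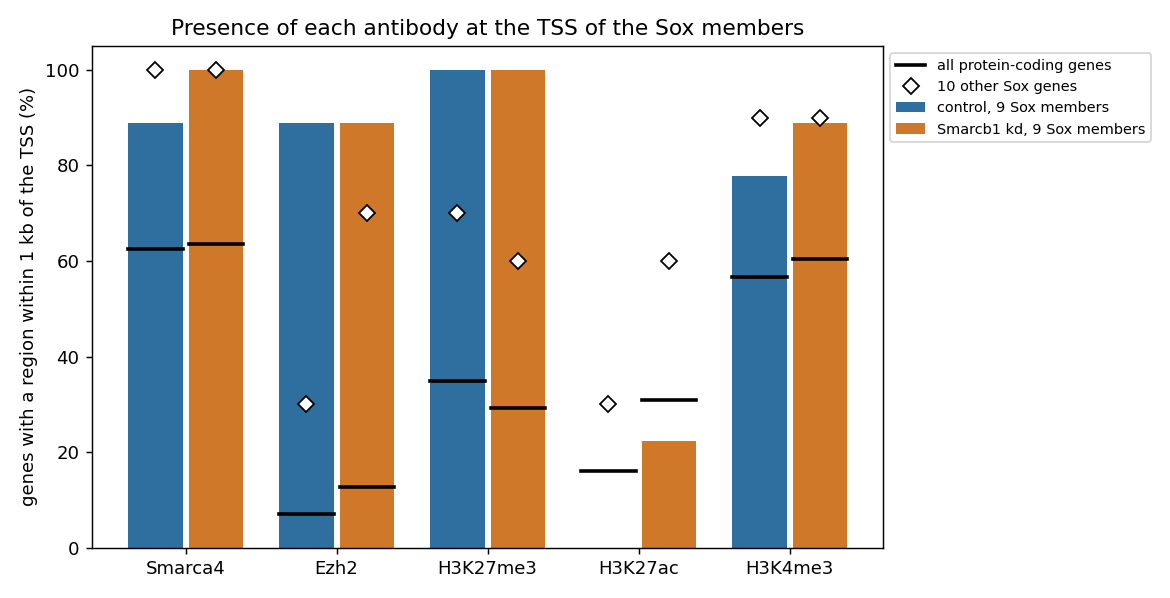
Share of genes with a called peak or island within 1 kb of the TSS (vertical axis, percent) for 5 antibodies; bars show the 9 Sox members in control and Smarcb1 kd, black lines the 21938 protein-coding genes and diamonds the 10 other Sox genes, with 1 library per bar. Ezh2 lay at 8 of 9 members in each condition against 7.13% and 12.6% of protein-coding genes, while H3K27ac lay at 0 and 2 of 9.

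In the windows that reach 20 kb beyond the gene regions, Smarca4 had 55 peaks in control and 41 in kd, and Ezh2 had 28 and 21. H3K27me3 had 17 and 14 islands, H3K27ac 2 and 5, and H3K4me3 11 and 14. In the gene regions themselves the Smarca4 count was 27 and 26, so that the lower number in kd came from the flanks, with 28 peaks in control and 15 in kd. Of the regions in the windows, 27 Smarca4 peaks at 7 members were control-only and 10 at 5 members were kd-only. For comparison, 55.8% of protein-coding genes had a control-only and 58.5% a kd-only Smarca4 peak in this window. For Ezh2, 3 peaks at 2 members were control-only and 7 peaks at 4 members kd-only, with 4 of the 7 at Sox21, where 11.4% and 14.1% of protein-coding genes had such a peak. H3K27me3 had 6 control-only islands at 5 members and 0 kd-only islands, against 36.7% and 11.9% of genes. H3K27ac had 1 control-only island at 1 member and 4 kd-only islands at 4 members, against 22.6% and 56.6%. H3K4me3 had 0 control-only islands and 2 kd-only islands at 2 members, against 6.63% and 30.7%. Of the 27 control-only Smarca4 peaks, 6 lay in gene regions, and of the 10 kd-only peaks also 6. Control-only peaks thus lay mostly in the flanks, which are longer than the gene regions, and kd-only peaks did not. The flank count fell most at Sox21, from 7 to 0, and at Sox7, from 4 to 0, and rose at Sox18 alone, from 4 to 5.

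**Figure D2:**
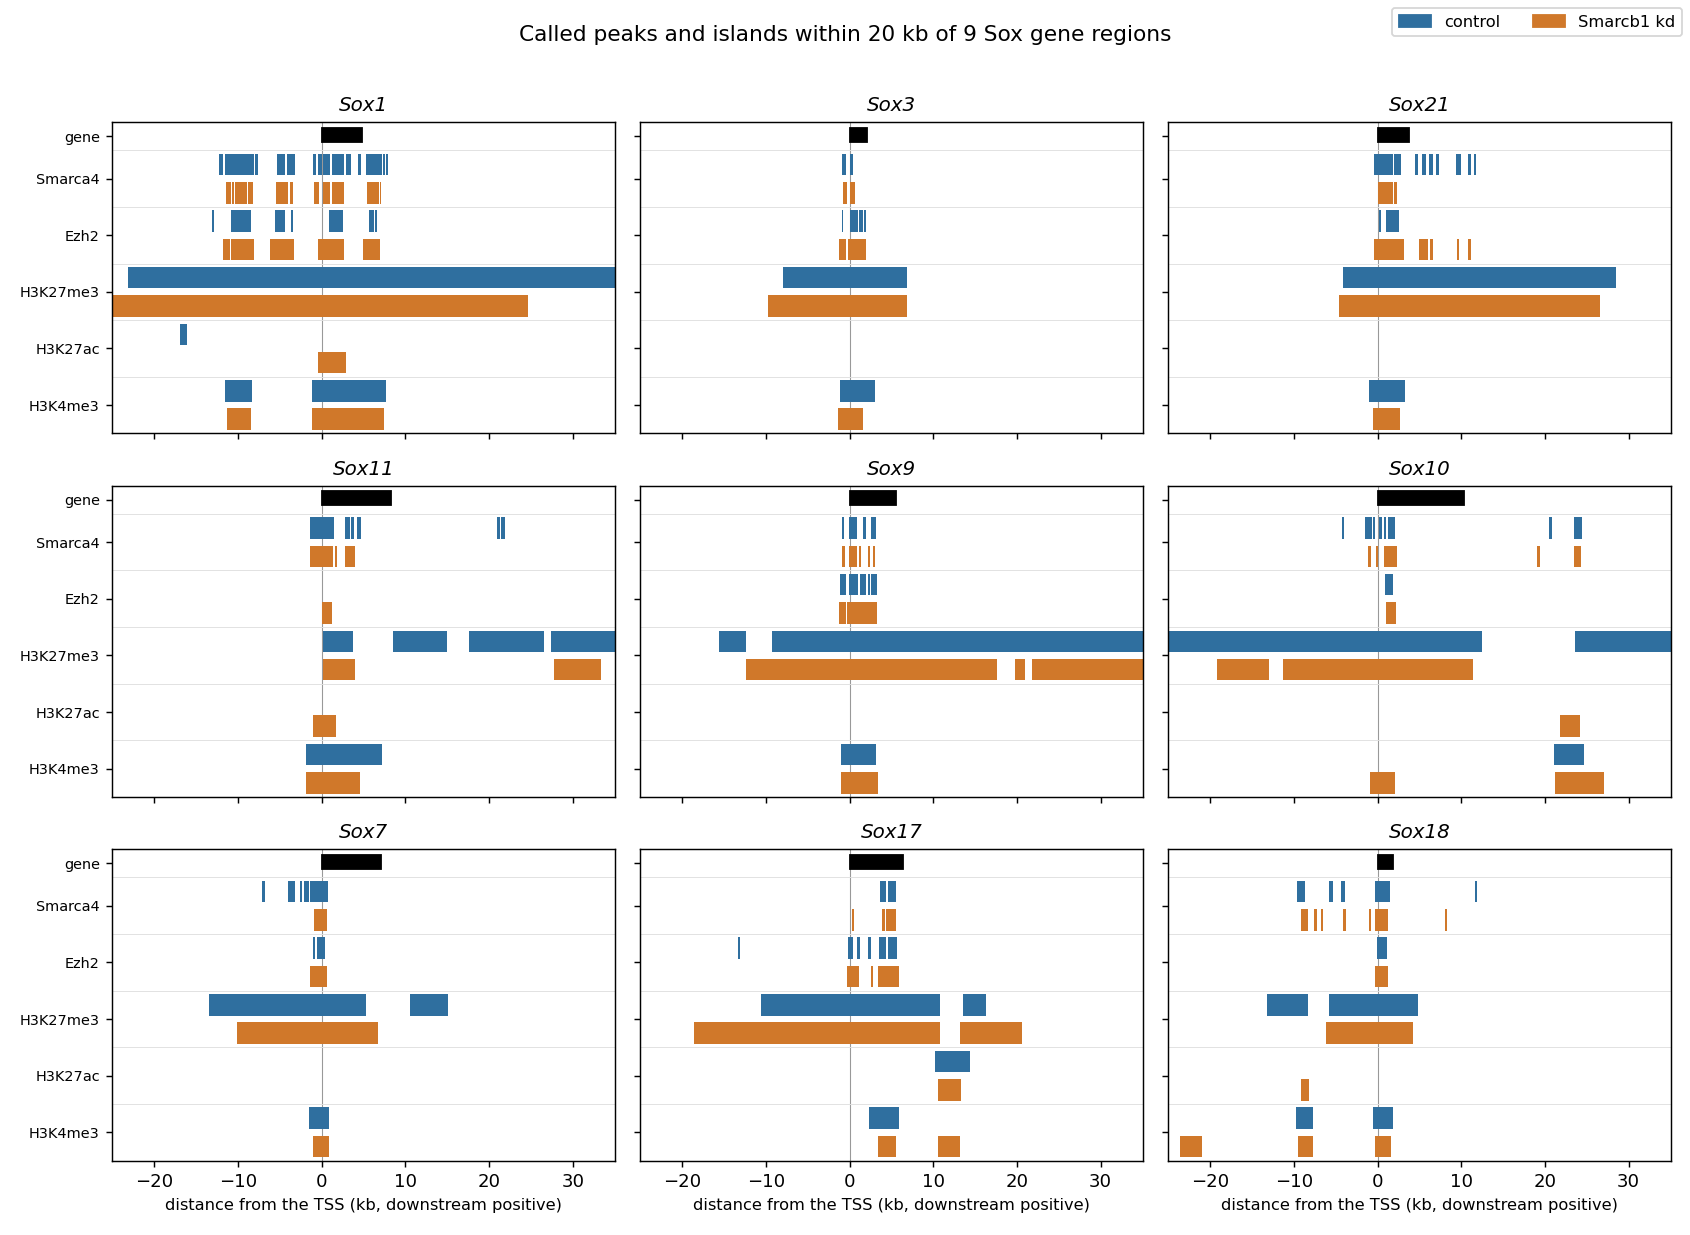
Position of every called peak and island within 20 kb of each Sox gene region, as distance from the TSS in kb (horizontal axis, downstream positive, drawn from 25 kb upstream to 35 kb downstream); black bars are the genes, blue bars control and orange bars Smarcb1 kd, 1 library per lane. H3K27me3 overlapped the gene in both conditions in 9 of 9 panels, H3K27ac lay in the gene region at Sox1 and Sox11 in kd alone, and control-only Smarca4 peaks stood downstream of Sox21 and upstream of Sox7.

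Sox1, a SoxB1 gene with 1 exon at chr8:12395295-12400126 on the plus strand, had the most Smarca4 peaks of the 9 in its window in each condition. Its window also held the most Ezh2 peaks in control, and in kd as many as that of Sox21. Its gene region held 1 Ezh2 peak in each condition, against 5 at Sox9 and at Sox17 in control. Positions below are in bp from the TSS, negative upstream. Smarca4 had 14 peaks in its window in control and 13 in kd, Ezh2 had 7 and 5, and both factors also occupied a stretch from -11576 to -8138 at the start of Sox1ot, the overlapping transcript that begins at -9524. The strongest Smarca4 peak of the gene region scored 434 in control, above 98.7% of its list, and 348 in kd, above 96.7%. The strongest Ezh2 peak scored 291 in control at 929 to 2566 and 551 in kd at -453 to 2709. Of the Smarca4 peaks, 6 were control-only, with scores of 20 to 69, above 1.91% to 52.6% of the control list. In that score range 62.9% of control peaks were control-only genome-wide. Sox1 was 1 of only 2 members with H3K27ac in the gene region: an island from -494 to 2905 in kd with a −log10 p of 18.4, where control had none. H3K4me3 covered -1094 to 7705 in control and -1094 to 7505 in kd, and H3K27me3 spanned the whole gene in both, so that after kd this gene region was called for all 5 antibodies.

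Sox3, a SoxB1 gene with 1 exon at chrX:60891366-60893430 on the minus strand, had the weakest Smarca4 of the members in control by its strongest peak. It had 2 Smarca4 peaks in each condition, the stronger with a score of 44 in control, above 25.7% of the list, and 83 in kd, above 61.8%. Sox3 was the only member whose strongest Smarca4 peak ranked higher in its list after kd. Ezh2 had 4 peaks in control with scores of 25 to 149, and 2 in kd with scores of 86 and 425. Together the Ezh2 peaks covered 62.1% of the gene region in control and 90% in kd. H3K4me3 narrowed from 4200 to 3000 bp, and no H3K27ac island lay within 20 kb in either condition. The antisense gene Gm14662 starts at -223, so its promoter cannot be separated from that of Sox3.

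Sox21, a SoxB2 gene with 1 exon at chr14:118233232-118237030 on the minus strand, had different regions called in control and kd downstream of the gene. At the gene itself Smarca4 peaks ran from -432 to 1867 and from 2015 to 2836 in control, with scores of 322 and 225. In kd they ran from 31 to 1823 and from 1937 to 2291, with scores of 230 and 61. Ezh2 moved the other way in the lists, from 2 peaks with scores of 40 and 187 in control to 1 peak in kd from -445 to 3144 with a score of 890, which ranked above 97.5% of its list against 88.1% for the strongest in control. Downstream of the gene, between 4458 and 11737, Smarca4 had 7 peaks in control with scores of 38 to 94, and none of them had an overlap in kd. In the same stretch Ezh2 had 0 peaks in control and 4 in kd, at 4937 to 5998, 6245 to 6566, 9467 to 9761 and 10777 to 11213, with scores of 154, 40, 44 and 60. Each of these 4 kd-only Ezh2 peaks overlapped a control-only Smarca4 peak, by 507, 322, 295 and 376 bp. The stretch is intergenic and lay inside the H3K27me3 island of both conditions, which spanned -4170 to 28429 in control and -4570 to 26629 in kd.

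The Sox21 overlaps were rare in the lists as a whole. Of 34674 control-only Smarca4 peaks, 185 (0.534%) overlapped a kd-only Ezh2 peak, compared with 5.02% of the 44340 Smarca4 control peaks that were shared with kd. At least 1 such overlap lay in the window of 242 protein-coding genes (1.1%), among them Sox1 with 1 of 43 bp, and at least 4 lay in the window of 1 gene (0.00456%), Sox21. The comparison was made after the peaks had been seen and carries no test. The 7 control-only Smarca4 peaks lay above 16.5% to 67.3% of their list. The 4 kd-only Ezh2 peaks lay above 55.9%, 9.04%, 10.4% and 21.7% of theirs. In these score ranges, 54.1% of control Smarca4 peaks were control-only and 73.9% of kd Ezh2 peaks were kd-only. At least 7 control-only Smarca4 peaks lay in the windows of 8.33% of protein-coding genes. With scores of at least 50 alone, 2 of the 4 overlaps remained, since 2 of the Ezh2 peaks scored 40 and 44. The central bases of the 4 overlaps, where Smarca4 was called in control alone and Ezh2 in kd alone, follow in GRCm38, each 5′ to 3′ on the minus strand with CpG in capitals. Site 1 is chr14:118231312-118231611, site 2 chr14:118230475-118230774, site 3 chr14:118227269-118227563 and site 4 chr14:118225916-118226215, in order of distance from the TSS.
Sox21 downstream site 1: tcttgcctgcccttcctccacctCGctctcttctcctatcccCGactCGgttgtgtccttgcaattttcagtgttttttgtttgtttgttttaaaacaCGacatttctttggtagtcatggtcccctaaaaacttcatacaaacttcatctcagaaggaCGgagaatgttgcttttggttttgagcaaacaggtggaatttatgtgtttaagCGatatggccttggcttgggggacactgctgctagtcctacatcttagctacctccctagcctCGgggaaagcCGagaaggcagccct
Sox21 downstream site 2: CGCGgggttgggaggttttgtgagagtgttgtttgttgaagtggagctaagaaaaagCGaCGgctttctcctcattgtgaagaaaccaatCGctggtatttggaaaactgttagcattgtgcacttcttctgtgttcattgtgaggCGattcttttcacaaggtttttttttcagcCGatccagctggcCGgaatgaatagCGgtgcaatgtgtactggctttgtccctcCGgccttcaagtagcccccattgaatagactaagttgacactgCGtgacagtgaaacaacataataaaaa
Sox21 downstream site 3: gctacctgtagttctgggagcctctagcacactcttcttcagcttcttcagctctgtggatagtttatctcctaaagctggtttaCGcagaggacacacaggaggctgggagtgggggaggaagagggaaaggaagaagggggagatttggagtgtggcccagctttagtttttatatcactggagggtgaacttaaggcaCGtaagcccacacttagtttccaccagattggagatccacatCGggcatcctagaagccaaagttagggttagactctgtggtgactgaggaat
Sox21 downstream site 4: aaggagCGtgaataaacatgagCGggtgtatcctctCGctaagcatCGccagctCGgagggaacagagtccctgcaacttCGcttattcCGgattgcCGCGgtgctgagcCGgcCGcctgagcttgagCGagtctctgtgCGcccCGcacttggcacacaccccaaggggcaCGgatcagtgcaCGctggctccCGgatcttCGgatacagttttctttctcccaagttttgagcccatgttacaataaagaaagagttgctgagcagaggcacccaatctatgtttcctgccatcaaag

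The 4 sites held 8, 11, 3 and 18 CpG, with a GC share of 46.7%, 45%, 49.8% and 55.3%. By observed over expected CpG, sites 1 to 4 stood at 0.493, 0.742, 0.171 and 0.785. The promoter sequences printed above stood at 0.507 for Sox1, 0.641 for Sox21 and 0.81 for Sox11. Neither AACAAT nor ATGCAAA occurred in any of the 4.

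**Figure D3:**
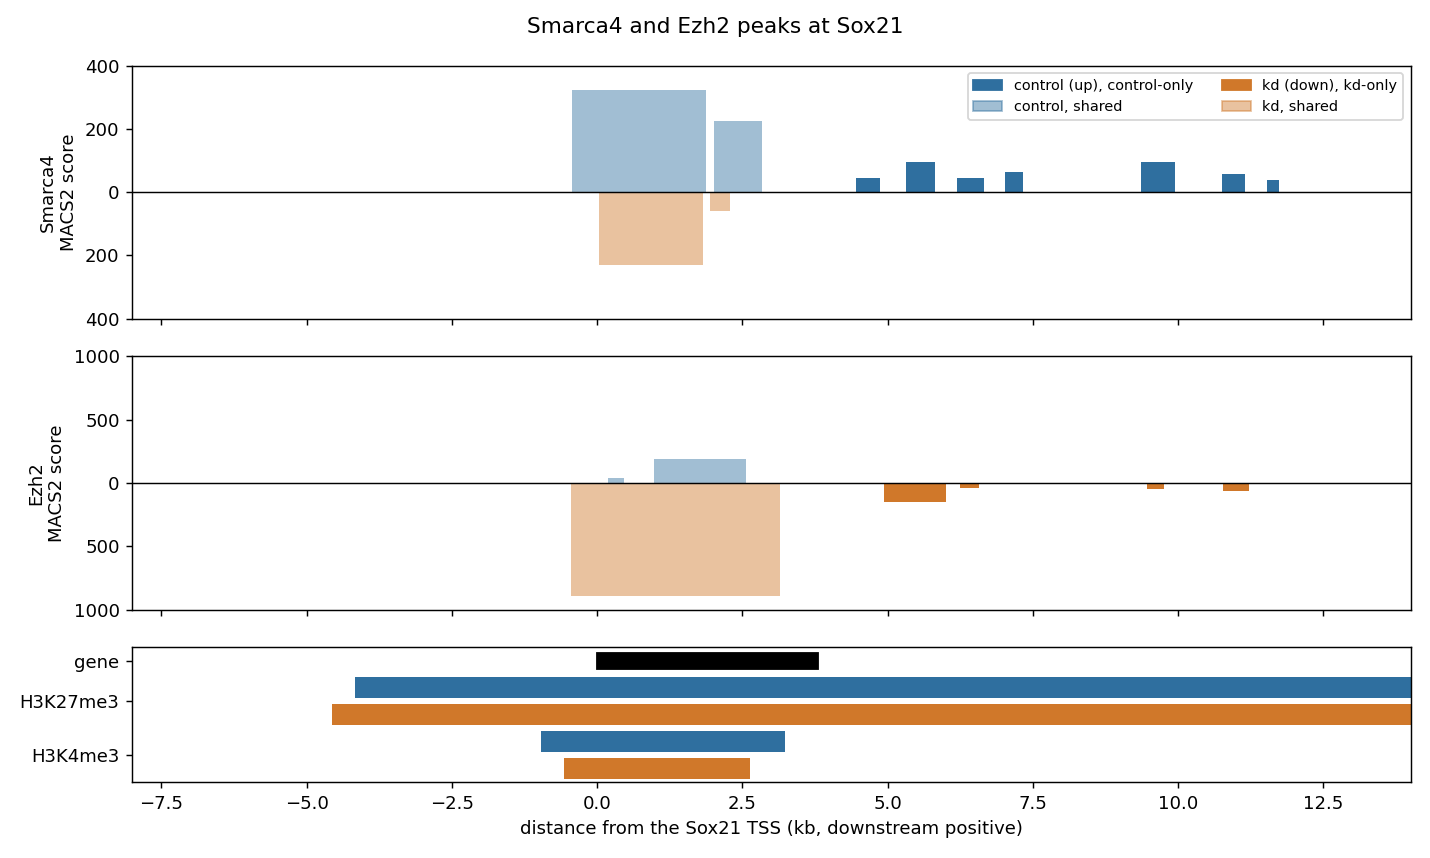
Smarca4 (top) and Ezh2 (middle) peaks at Sox21 by distance from the TSS in kb (horizontal axis), with bar height as the deposited MACS2 score, control upward in blue and Smarcb1 kd downward in orange; solid bars have no overlap in the other condition, pale bars are shared, and the lower panel shows the gene and the H3K27me3 and H3K4me3 islands. The 7 solid blue Smarca4 peaks lie between 4458 and 11737 bp downstream, and all 4 solid orange Ezh2 peaks lie under 4 of them; scores are not scaled between libraries.

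Sox11, a SoxC gene with 1 exon at chr12:27334264-27342574 on the minus strand, had the strongest Smarca4 peak in its gene region and the narrowest H3K27me3 island at the TSS. The Smarca4 peak over the TSS scored 641 in control, above 99.8% of the list, and 464 in kd, above 98.8%. H3K4me3 covered 9000 bp in control and 6400 bp in kd, with p listed at 0 in both. The H3K27me3 island lay inside the gene, from 174 to 3773 in control and from 174 to 3973 in kd. Its rank fell from above 81% of the list to above 44.9%, with a −log10 p of 138 in control and 20.9 in kd. Another 2 H3K27me3 islands downstream, from 8574 to 14973 and from 17574 to 26573, were control-only, and the cover of the window by H3K27me3 was 19.9 kb in control and 4.34 kb in kd. Ezh2 had no peak within 20 kb in control and 1 in kd, from 61 to 1212 with a score of 87, above 37.7% of its list. Of kd Ezh2 peaks with at least that score, 27% were kd-only, and an Ezh2 peak in kd alone was found in 5.96% of gene regions. An H3K27ac island from -1026 to 1773, with a −log10 p of 15.8, was also called in kd alone. Among the members, Sox11 alone thus had both Ezh2 and H3K27ac called in kd only. Outside the list, Sox13 and Sox30 had the same pair of kd-only calls at the TSS. The share of all genes with both calls was not counted.

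Among kd H3K27ac islands at least as strong as the weaker of those at Sox1 and Sox11, 16.6% had no overlap in control. H3K27ac was called in kd alone in 18.9% of all gene regions of protein-coding genes and in 18.4% of the 7160 gene regions with H3K27me3 in both conditions, and 2 of 9 members did not stand apart from that share. The H3K27ac list was longer in kd, with 51100 islands against 39091. Its part in the 2 calls was not tested. Both islands ranked above the weakest islands, which were dropped when the kd list was shortened to the length of the control list. Both therefore had to remain, and that setting cannot address the question.

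Sox9, a SoxE gene with 3 exons at chr11:112782224-112787760 on the plus strand, had Smarca4 and Ezh2 at the same places over its 5′ part, where each of the 4 control Smarca4 peaks overlapped a control Ezh2 peak. Smarca4 had 4 peaks in control and 5 in kd, and its strongest fell from a score of 204, above 90.2% of the list, to 83, above 61.8%, the largest loss of rank among the 9. Ezh2 had 5 separate peaks in control, from -1105 to 3253, and 2 in kd, of which 1 ran from -305 to 3324 without a gap. H3K4me3 covered 4200 and 4400 bp. The H3K27me3 island reached from -9223 to 37176 in control. In kd it ended at 17576, and 2 further islands followed from 19777 to 20976 and from 21777 to 37776, so that nearly the same stretch was called with 2 gaps. The noncoding gene BC006965 starts at -248 on the other strand and shares the promoter peaks.

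Sox10, a SoxE gene with 4 transcripts at chr15:79154908-79165240 on the minus strand, differed from the other members in H3K4me3. No H3K4me3 island lay in its gene region in control, and an island from -960 to 2039 with a −log10 p of 75.4 was called in kd. Of 15299 kd H3K4me3 islands at least that strong, 91 (0.595%) had no overlap in control, and H3K4me3 was called in kd alone in 5.49% of gene regions. The island covers the starts of all 4 Sox10 transcripts and also that of Gm10863, a noncoding gene that begins at -801 on the other strand, so the mark cannot be assigned to either. The kd list of H3K4me3 was longer, with 33506 islands against 26130, and held 2 fibroblast markers that the control list did not. Their part in the Sox10 call was not tested. The island lay above 54.3% of the kd list, so it had to remain when the weakest islands were dropped to equal length. That setting cannot address the question. Smarca4 at 1224 to 2084 scored 372 in control, above 97.8% of the list, and the peak that overlapped it in kd scored 190, above 86.2%. Ezh2 lay at 885 to 1801 with a score of 172 in control and at 1059 to 2171 with a score of 208 in kd, so that in kd it no longer counted as lying within 1 kb of the TSS. The H3K27me3 island at the TSS measured 56.6 kb in control and 22.8 kb in kd. In kd a separate island from -19160 to -12961 also overlapped the control island, and the cover of the window was 40.1 kb in control and 29 kb in kd. Beyond the gene, Smarca4, H3K4me3 and, in kd, H3K27ac lay at the start of Polr2f and 1700088E04Rik at 24231 and 23987, which are the sources of every H3K27ac and H3K4me3 island counted in the Sox10 flank.

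Sox7, a SoxF gene with 2 exons at chr14:63943673-63950732 on the plus strand, had upstream Smarca4 peaks in control alone. In control Smarca4 lay at -7091 to -6744, -3979 to -3215, -2628 to -2370 and -2072 to -1544, with scores of 79, 108, 79 and 190, and over the TSS with a score of 292. In kd only the peak over the TSS was called, with a score of 175. The 4 control-only peaks lay above 59.5% to 88.4% of the control list. Genome-wide, 24.6% of control peaks with scores of 79 to 190 were control-only. At least 4 control-only Smarca4 peaks lay in the windows of 20.2% of protein-coding genes. Ezh2 over the TSS scored 426 in control, the highest of the members, and 791 in kd. No Ezh2 peak was called at the 4 upstream sites in either condition. H3K27me3 covered 18.8 and 16.8 kb around the gene, and H3K4me3 2400 and 2000 bp.

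Sox17, a SoxF gene with 8 transcripts at chr1:4490931-4497354 on the minus strand, carried H3K4me3 and, in control, Smarca4 at its internal starts and not at its 5′ end, where Ezh2 and H3K27me3 lay in both conditions. Smarca4 lay at 3597 to 4317 and 4592 to 5575 in control with scores of 94 and 173, and at 3818 to 4200 and 4364 to 5524 in kd with scores of 47 and 131. H3K4me3 lay at 2354 to 5953 in control and 3354 to 5553 in kd. The transcript starts at 3619 and 3750 carried Smarca4, Ezh2, H3K27me3 and H3K4me3 in both conditions, whereas no start between 0 and 1024 carried H3K4me3 in either. A Smarca4 peak from 290 to 534 with a score of 60 was called in kd alone. Ezh2 covered 42.2% of the gene region in control and 55.6% in kd. Sox17 was the member whose H3K27me3 widened most, from 21.4 to 29.4 kb by extension upstream. H3K27ac and, in kd, H3K4me3 formed islands between 10154 and 14353 bp downstream. Repeats mask 79.5% of the H3K27ac island in control and 100% of it in kd.

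Sox18, a SoxF gene with 2 exons at chr2:181669836-181671640 on the minus strand, kept its occupancy over the gene. Smarca4 from -285 to 1511 scored 377 in control, above 97.8% of the list, and from -331 to 1283 scored 235 in kd, above 90.5%. Ezh2 covered -104 to 1155 in control with a score of 132 and -249 to 1201 in kd with a score of 288. The H3K4me3 island changed little in width, from 2400 to 2000 bp, but its −log10 p rose from 16.3, above 17.3% of the list, to 203, above 77%. H3K27me3 covered 10.6 and 10.4 kb. The H3K27ac island of kd at -9160 to -8161 lay at the start of Tcea2, and the H3K4me3 islands of the flank lay at Tcea2 and Rgs19, and no acetylation was called at Sox18 itself.

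Taking the 9 members as a list, Ezh2 covered more of the gene region after kd at 9 of 9, and the summed cover rose from 15035 to 23281 bp. Sox11 had no Ezh2 in control and could only rise, so the background below compares with the other 8 members. Of the 2065 gene regions with Ezh2 in both conditions, 93.9% moved in the same direction and 5.91% in the other. Genome-wide the median Ezh2 peak widened from 354 to 736 bp between the lists, and the part of this general widening in the members' values was not tested. Ranks within each list do not depend on the scale of the score but do depend on how many peaks were called, 6708 in control and 5364 in kd for Ezh2. By rank, the strongest Ezh2 peak stood lower in kd at 6 of the 8 members with peaks in both conditions and higher at Sox3 and Sox21. Over all gene regions with Ezh2 in both, the rank was lower in 37.3% and higher in 62.7%. The raw scores of the members rose at all 8, so score and rank gave opposite readings at Sox1, Sox7, Sox9, Sox10, Sox17 and Sox18.

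Smarca4 covered less of the gene region after kd at Sox1, Sox7, Sox9, Sox11 and Sox21 and more at Sox3, Sox10, Sox17 and Sox18. The summed cover was 21345 bp in control and 18743 bp in kd, and 59.3% of the 14886 gene regions with Smarca4 in both conditions lost cover. The strongest Smarca4 peak ranked lower in its list after kd at 8 of 9 members, the exception being Sox3, whereas over all such gene regions the rank was lower in 52.9% and higher in 47.1%. In the whole windows the cover was lower at 6 members and higher at Sox3, Sox17 and Sox18, and the sums were 39944 and 28904 bp. The losses were largest at Sox1, with 12.5 kb in control and 8.9 kb in kd, and at Sox21, with 6 and 2.15 kb.

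**Figure D4:**
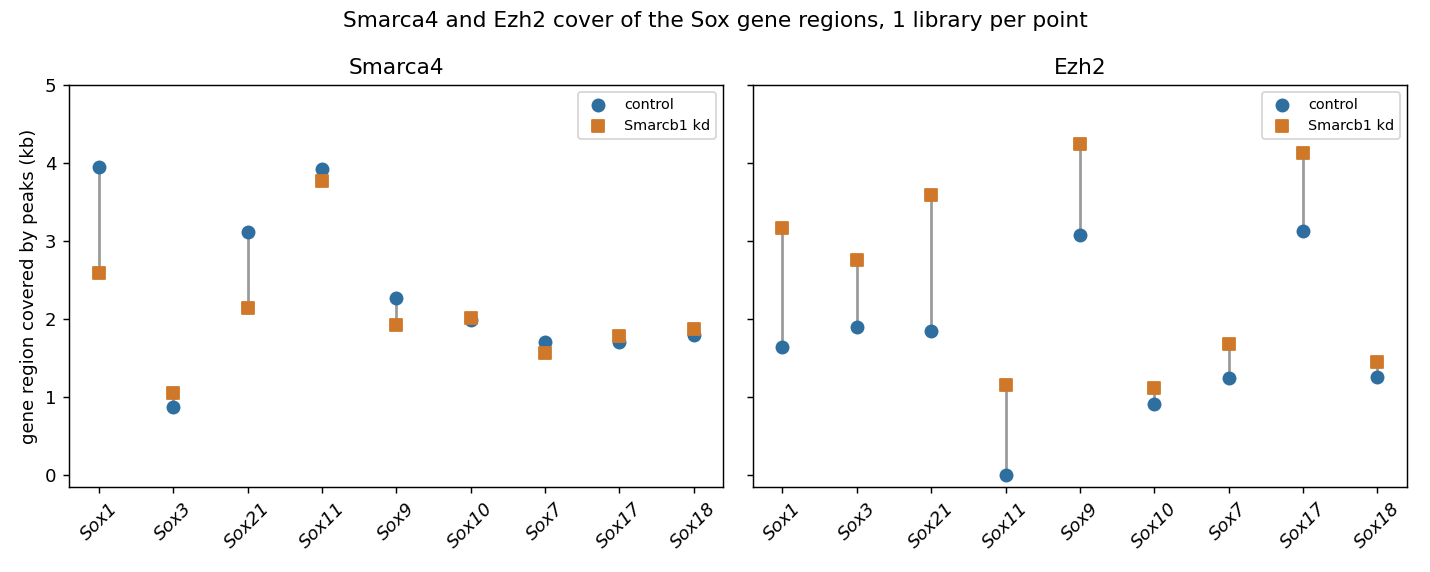
Bases of each Sox gene region covered by Smarca4 (left) and Ezh2 (right) peaks, in kb (vertical axis), for 9 members; circles are control, squares Smarcb1 kd, with 1 library per point and no error. Ezh2 cover was higher in kd at 9 of 9 members, while Smarca4 cover was lower at 5 and higher at 4.

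The control Smarca4 peaks that had an overlap in kd were richer in CpG than the control-only ones. In the members' windows the 28 shared peaks held a median of 7.19 CpG per 100 bases (2.48 to 12.4) and the 27 control-only peaks a median of 1.85 (0 to 5.87). The same direction was found over the whole control list, with 3.65 for 44340 shared and 1.53 for 34674 control-only peaks. The upstream peaks of Sox7 were poor in CpG, with a median of 1.31, while the control-only peaks downstream of Sox21 had a median of 3.16.

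The width of the H3K27me3 island at the TSS divided the members. In control it measured 66.6 kb at Sox1, 56.6 kb at Sox10, 46.4 kb at Sox9, 32.6 kb at Sox21 and 21.4 kb at Sox17. It measured 18.8 kb at Sox7, 14.8 kb at Sox3, 10.6 kb at Sox18 and 3.6 kb at Sox11. The first 5 passed 20 kb, a width reached by 26% of the 5874 protein-coding genes with H3K27me3 at the TSS in both conditions, and the median island of the list was 5800 bp wide. In kd the widths were 54 kb at Sox1, 22.8 kb at Sox10, 30 kb at Sox9, 31.2 kb at Sox21 and 29.4 kb at Sox17, so that the same 5 passed 20 kb, against 16.8% of those genes. Sox7 had 16.8 kb, Sox3 had 16.6 kb, Sox18 had 10.4 kb and Sox11 had 3.8 kb. The island was narrower in kd at 6 members and wider at Sox3, Sox11 and Sox17, close to the background of 59.3% narrower and 38.3% wider. The reduction of the island at the Sox10 TSS, to 0.403 of the control width, was reached or exceeded by 9.16% of those genes. No member lost H3K27me3 from its TSS. Most protein-coding genes kept it as well, 5874 of the 7662 that had it there in control.

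**Figure D5:**
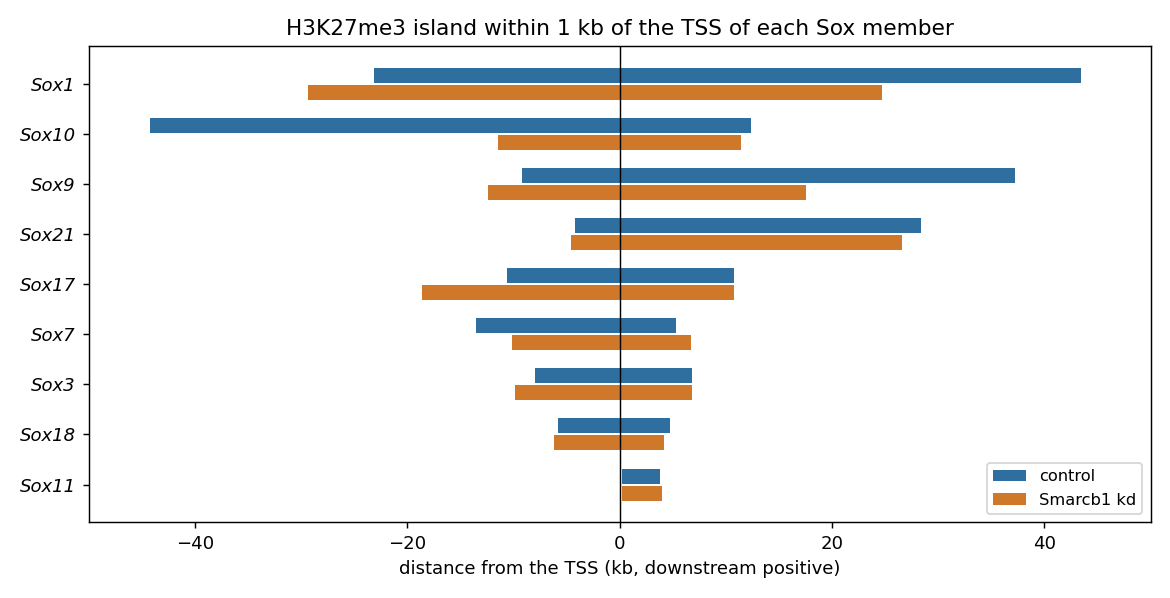
Extent of the H3K27me3 island within 1 kb of the TSS of each Sox member, as distance from the TSS in kb (horizontal axis, downstream positive), in control (blue) and Smarcb1 kd (orange), 1 library each, ordered by control width. The island at the TSS measured 56.6 kb in control and 22.8 kb in kd at Sox10, where a separate island farther upstream is not drawn, measured 21.4 and 29.4 kb at Sox17, and stayed below 4 kb at Sox11.

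Closely related Sox genes outside the list served for comparison at the TSS. Sox2, the SoxB1 factor of pluripotency, Sox12 and Sox15 carried Smarca4 and H3K4me3 without Ezh2 or H3K27me3 in either condition. Sox14, the other SoxB2 gene, resembled Sox21 in having Smarca4 and Ezh2 and an H3K27me3 island of 34.8 kb in control and 36.2 kb in kd, but its H3K4me3 island was called in control alone. Sox4, the SoxC relative of Sox11, had a narrow H3K27me3 island of 3 and 6.8 kb and, like Sox11, Ezh2 in kd alone, but it had H3K27ac in both conditions. Sox8, the SoxE relative of Sox9 and Sox10, also had Ezh2 in kd alone, and its H3K27me3 island measured 29.4 and 16.2 kb. Over the 10 genes, Smarca4 lay at the TSS of 10 in each condition, Ezh2 at 3 in control and 7 in kd, H3K27me3 at 7 and 6, H3K27ac at 3 and 6, and H3K4me3 at 9 and 9. Sox13 accounted for the missing H3K27me3 call in kd. At Sox13 and Sox30, as at Sox11, Ezh2 and H3K27ac were both called at the TSS in kd alone.

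Of 13 partner and target genes of the Sox factors, such as Pax6 and Nes for SoxB, Col2a1 and Acan for Sox9, and Kdr and Foxa2 for SoxF, Ezh2 lay at the TSS of 8 in control and 9 in kd, and H3K27me3 at 11 and 11. H3K4me3 lay at 8 and 9 and H3K27ac at 0 and 0. Mitf and Erbb3, targets of Sox10 in the melanocyte and Schwann lineages, were the 2 without H3K27me3. Foxa2 had H3K4me3 at the TSS in kd alone, and Ednrb had Ezh2 there in kd alone. Smarca4 lay at 12 and 11, with Cdh5 in control alone and Gata4 in neither condition.

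The gene with the most similar cover of the 5 kb on either side of the TSS was sought for each member over all 10 lists, with the mean absolute difference in covered bases as the measure. It was Tlx3 for Sox1 (395 bp), Kcna1 for Sox3 (234 bp), Ly6h for Sox7 (181 bp), Zfp536 for Sox9 (111 bp) and Oxt for Sox10 (150 bp). It was Tmem259 for Sox11 (506 bp), Sim1 for Sox17 (95.8 bp), Wnt4 for Sox18 (192 bp) and Cdh2 for Sox21 (262 bp). The median protein-coding gene differed from the members by 2812 to 4292 bp. The nearest other member was farther than the nearest gene in every case, at 369 bp for Sox7 and Sox18, 419 bp for Sox3 and Sox17, and up to 2197 bp from Sox11 to Sox1. Sox11 was the least like the others, with 4233 protein-coding genes closer to it than any member, while for the other 8 that number lay between 42 and 308.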

How the data were processed

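ChIP-seq was performed on 14 samples, 10 immunoprecipitated libraries and 4 inputs, for which no file was used here. Per the methods, reads were trimmed, aligned to mm10 and filtered with samtools 1.9 to unique alignments. The submitters' processing notes also name Trim Galore and Bowtie2, without a role. The deposited score of Smarca4 and Ezh2 peaks is the authors' MACS2 score. The p-value deposited with the islands of H3K27me3, H3K27ac and H3K4me3 is the authors' SICER p-value. Neither is scaled between libraries. The methods name input as background, whereas the labels of the inputs name IgG, so the background is uncertain. Smarca4 and H3K27me3 were immunoprecipitated by Active Motif and the other antibodies in the authors' laboratory, so differences between these 2 groups of antibodies cannot be told apart from the laboratory. Depth is unknown.

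Only the autosomes 1 to 19 and the X and Y chromosomes were used, which left out 0 to 61 lines of a list. Overlaps asked for at least 1 bp and were checked against bedtools 2.31.1 and tested on simulated data. Genes came from GENCODE M21 on GRCm38, whereas the paper names a later release. The background is the share of 21938 protein-coding genes with the same call. All 9 members are named. Of other genes, those that differ from their list, neighbours with a peak at their TSS and the gene nearest in pattern are named. Members and lists were chosen with earlier results of these data known. Without replicates there was no test. Alternatives were a stricter threshold (a MACS2 score from 50 upward, and a −log10 p from 20 upward, or from 10 in the case of H3K27ac), lists of equal length, other windows, overlaps, gene sets and transcripts, and removal of regions masked as repeats over at least 50% of their bases.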

Additional observations from a re-analysis of the deposited data

How the results depend on the processing

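No paired analysis was possible because there was 1 library per antibody and condition, and for the same reason leaving out a replicate was not possible. Under the alternatives, 265 of 300 values stayed within 1.5 times the reported one. The number of members with a region in the gene region or at the TSS stayed within that limit for every antibody and alternative run. The cause of the shifts below was not tested except where the alternative's own construction shows it. With the stricter threshold, the Sox21 overlaps of control-only Smarca4 with kd-only Ezh2 peaks fell to 2, H3K27ac islands in the windows to 1 in control and 3 in kd, and H3K27ac regions without overlap to 0 and 2. H3K27me3 islands without overlap were then 3 in control and 1 in kd. With lists of equal length, H3K27ac islands of kd in the windows were 3, of which 2 had no overlap, and control-only H3K27me3 islands were 3. When a gap of 1 kb counted as shared, one-condition Smarca4 peaks were 15 in control and 4 in kd. Without repeat-masked regions, control H3K27ac islands in the windows were 0. Windows of 5 kb held 1 and 3 H3K27ac and 11 and 9 H3K27me3 islands in control and kd. Windows of 50 kb held 7 and 11 H3K27ac islands, 28 control H3K27me3 islands, and 87 and 63 Smarca4 peaks. Within 10 kb of the TSS the median H3K27me3 cover was 15328 bp in control and 16728 bp in kd, against 10001 bp in both within 5 kb, since the wider window is longer. Over all annotated genes the background shares were lower, at 38.9% and 39.4% for Smarca4, 6.96% and 8.06% for Ezh2, 27.4% and 22.4% for H3K27me3, 19.4% and 28.1% for H3K27ac, and 33.6% and 36.7% for H3K4me3. By the same presence at the TSS in all 10 lists, a median of 1155 protein-coding genes were as like a member as its nearest member, against 121 by covered bases. The Sox21 overlaps, the Ezh2 cover and the CpG content of peaks under other settings were examined after the data had been seen, and Ezh2 cover stayed higher in kd at 9 of 9 members with the stricter threshold and with lists of equal length.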
